A study of Equus asinus with 12 samples.

Results

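The mitochondrial ribosome makes the few proteins encoded by mitochondrial DNA, nearly all of them subunits of the respiratory chain and ATP synthase. Its RNAs come from the mitochondrial genome, but its proteins are encoded in the nucleus, translated in the cytosol and imported. The large subunit joins amino acids, and the small subunit reads the messenger RNA. Some of the proteins descend from bacterial ribosomal proteins and others occur only in mitochondrial ribosomes. Skeletal muscle depends on this machinery to build its respiratory chain.

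The genes described here were the loci whose deposited name began with MRPL or MRPS followed by a number. Of 27084 loci in the table, 76 carried such a name, and 1 locus was taken per name, the one with the highest mean, which left 72 genes. By background knowledge 48 of them belong to the large subunit and 23 to the small subunit. The remaining gene, MRPS36, encodes a protein now known as a part of the 2-oxoglutarate dehydrogenase complex. A filter that asked for 1 FPKM (fragments scaled by transcript length and by the fragments of the library) in 3 or more libraries kept 68 of the 72, among 12408 loci kept in all. The kept genes comprised 46 of the large subunit, 21 of the small subunit and MRPS36.

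The 12 libraries came from donkeys (Equus asinus, Dezhou breed) aged 24 months, in 4 groups of 3. The groups were longissimus dorsi muscle of the Sanfen strain, gluteal muscle of the Sanfen strain, longissimus dorsi muscle of the Wutou strain and gluteal muscle of the Wutou strain. The design names 6 donkeys, and no label ties a library to an animal, so the p-values below measure the spread between libraries, part of which may be technical. No treatment or allele is given for any group.

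All 13 skeletal muscle markers of a fixed list were measured, and their summed level lay between 33957 and 48440 FPKM. Of 4 blood markers, 2 (ALAS2 and SLC4A1) were in the table and their sum was at most 0.24 FPKM. The globin genes HBA and HBB were not in the table by name, so the blood content is unknown. Summed endothelial markers lay between 41.6 and 77.9 FPKM and summed fibroblast and tendon markers between 80.2 and 173 FPKM. Adipocyte markers summed to between 9.33 and 38.3 FPKM, satellite cell markers to between 3.78 and 9.95 FPKM, macrophage markers to between 2.97 and 9.38 FPKM and Schwann cell markers to between 3.22 and 14.9 FPKM. The deposited FPKM totals lay between 214564 and 319767, and the number of reads behind them is unknown. In whole muscle, fewer cells of a type and less RNA per cell cannot be told apart.

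The kept mitochondrial ribosomal protein genes had a median level of 4.75 FPKM against 1.89 FPKM over all kept loci. Their means over the 12 libraries ran from 0.572 to 49.4 FPKM. Together the 72 genes took between 0.153% and 0.220% of the FPKM in a library. The median was 4.75 FPKM in the large subunit and 3.76 FPKM in the small subunit. Proteins with a bacterial counterpart had a median of 3.87 FPKM (39 genes) and proteins found only in mitochondrial ribosomes 4.99 FPKM (28 genes). This split follows the unified names of ribosomal proteins. It counts MRPS18A and MRPS18B as mitochondrial only, although the related MRPS18C is classed with a bacterial counterpart. Within each subunit the levels spread over more than a factor of 10, as the plot of all kept genes shows.

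**Figure D1:**
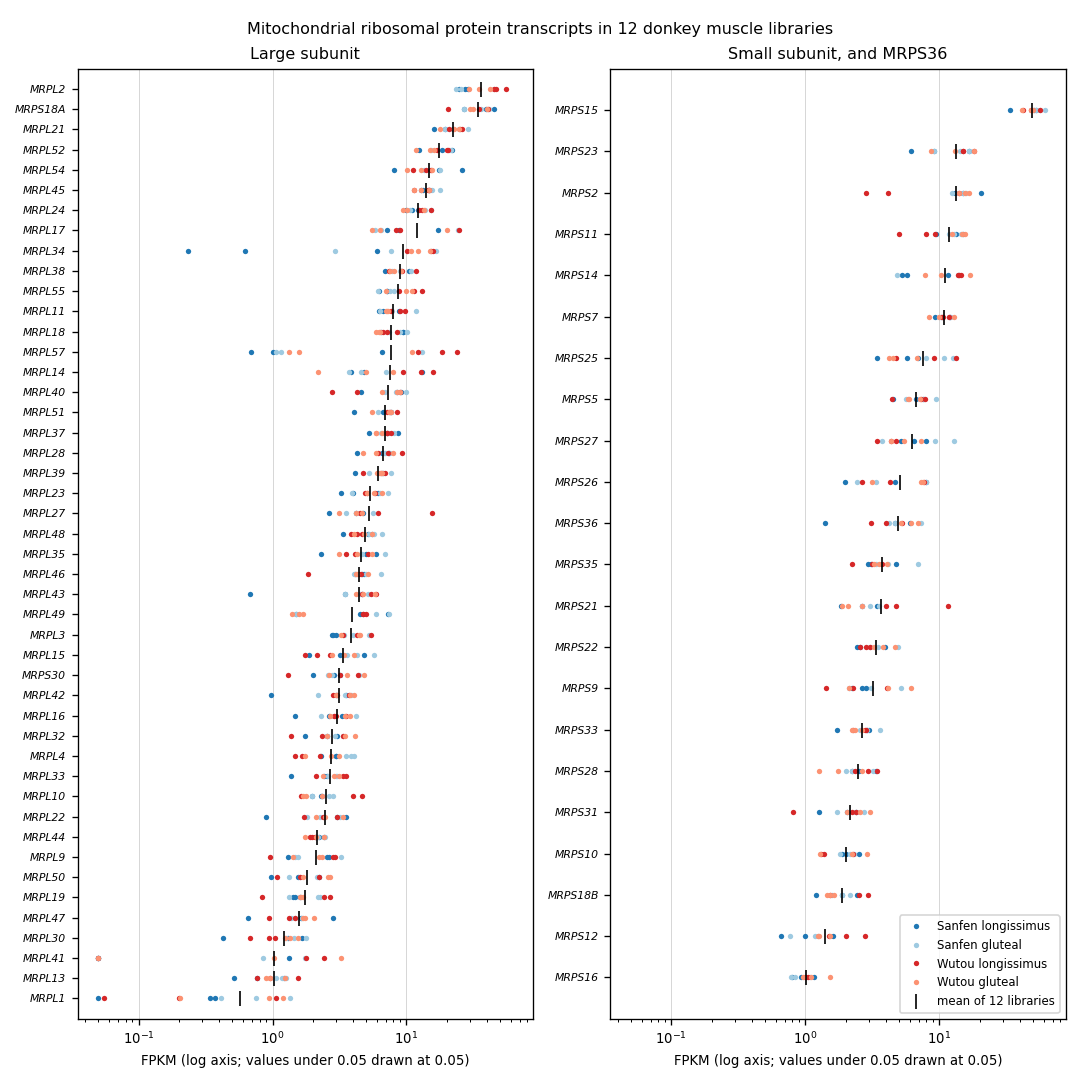
Level of each of the 68 kept genes in FPKM on a log axis, 1 row per gene, large subunit at left and small subunit with MRPS36 at right; points are libraries coloured by group and ticks are means over 12 libraries. MRPS15 at 49.4 FPKM, MRPL2 at 35.7 FPKM and MRPS18A at 34.3 FPKM stand above the rest, and MRPL34, MRPL57, MRPL49 and MRPL41 have points far from their means.

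MRPS15, a small-subunit protein with a bacterial counterpart, had the highest mean. Its libraries read 51.2, 33.6 and 52.6 FPKM in Sanfen longissimus, 61.4, 56.0 and 52.4 FPKM in Sanfen gluteal muscle. The Wutou longissimus libraries read 56.1, 48.0 and 42.2 FPKM and the gluteal ones 41.3, 49.9 and 48.5 FPKM. The lowest of the 12 was Sanfen longissimus replicate 2. All Wutou gluteal libraries lay below all Sanfen gluteal libraries, and every other pair of groups overlapped. After MRPS15, the small subunit was led by MRPS23 (13.3 FPKM), MRPS2 (13.3 FPKM), MRPS11 (11.8 FPKM) and MRPS14 (11.1 FPKM).

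MRPL2, whose bacterial counterpart lies beside the site of peptide bond formation, averaged 35.7 FPKM and led the large subunit. MRPS18A came next at 34.3 FPKM. Despite its S name its protein sits in the large subunit, as does that of MRPS30, which averaged 3.15 FPKM. MRPL21 (22.3 FPKM), MRPL52 (17.5 FPKM) and MRPL54 (14.7 FPKM) followed. The related genes MRPS18B and MRPS18C averaged 1.89 and 0.483 FPKM, so the 3 members of the MRPS18 family stood at very different levels.

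MRPL1, the protein of the mobile stalk beside the exit site for transfer RNA, was the lowest kept gene at 0.572 FPKM. Its row holds an assembled transcript without a reference transcript, and a second MRPL1 locus with reference transcripts averaged 0.369 FPKM. MRPS16 (1.02 FPKM), MRPL13 (1.03 FPKM) and MRPL41 (1.03 FPKM) were the next lowest. MRPL41 was listed at 0 in 5 libraries and reached 3.26 FPKM in Wutou gluteal replicate 2.

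MRPL12, MRPL36, MRPS6 and MRPS18C, 4 of the 72 genes, did not pass the filter on low values. MRPL36 averaged 0.0323 FPKM and MRPS6 averaged 0.374 FPKM. MRPL12 encodes the stalk protein that helps recruit translation factors, and its row averaged 0.580 FPKM and held no reference transcript. The reference transcripts of MRPL12 lie in a locus merged with HGS, outside the naming rule, which averaged 8.49 FPKM, so the MRPL12 level in these data is uncertain. MRPS17 and MRPS24 occur only in loci merged with another gene (GBAS and LOC106822888) and are not among the 72.

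MRPL23, MRPL34 and MRPS15 also had a second locus of the same name, at means of 2.94, 1.26 and 0.146 FPKM. The second MRPL23 locus ran from a listed 0 in Wutou gluteal replicates 2 and 3 to 6.26 FPKM in Sanfen gluteal replicate 1, while the locus used here stayed between 3.24 and 7.28 FPKM. Reads of these genes may have been split between loci. The loci of MRPL15, MRPL30, MRPS16 and MRPS18B were merged with a second gene in the deposited names. In the RefSeq assembly EquAss-T2T_v2, 25 of the 71 members with an entry overlap another protein-coding gene, among them MRPL2 with KLC4, MRPL14 with TMEM63B, MRPL49 with SYVN1, MRPL57 with SKA3 and MRPS21 with APH1A. The sources used here do not say whether counting used strand, so reads of such pairs may not have been told apart.

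In that assembly 7 members lie next to another mitochondrial gene of the lists or to another member. MRPS11 and MRPL46 are neighbours. MRPL36 lies beside NDUFS6 and MRPL47 beside NDUFB5, both genes of respiratory complex I, and MRPS6 lies beside ATP5PO of ATP synthase. MRPS12 lies beside SARS2, the mitochondrial seryl-tRNA synthetase, and MRPL43 beside TWNK, the mitochondrial DNA helicase.

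The spread of the genes over the 12 libraries was like that of other loci. The median coefficient of variation (SD over mean) was 28.5%, against 29.8% over all kept loci. MRPL44 and MRPL45 of the large subunit had the smallest, 10.3% and 12.8%, and MRPS7 and MRPS15 of the small subunit 12.2% and 15.3%. MRPL45 anchors the ribosome to the inner mitochondrial membrane, and MRPS7 lies in the head of the small subunit. MRPL44 stayed between 1.74 and 2.46 FPKM in all 12 libraries. MRPL41 (107%), MRPL57 (104%) and MRPL1 (81.2%) had the largest coefficients in the large subunit. In the small subunit MRPS21 (71.8%), MRPS26 (47.5%) and MRPS25 (44.4%) varied most.

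To compare libraries, log2(FPKM + 1) of each kept gene was centred on its mean over the 12 libraries and averaged over the 68 genes. This mean was -0.03, -0.30 and -0.08 in Sanfen longissimus replicates 1 to 3, and 0.25, 0.01 and -0.04 in Sanfen gluteal replicates 1 to 3. In the Wutou strain it was 0.10, -0.00 and 0.09 for longissimus and -0.04, -0.06 and 0.10 for gluteal muscle. Sanfen longissimus replicate 2 was the lowest library and Sanfen gluteal replicate 1 the highest. All Sanfen longissimus libraries lay below all Wutou longissimus libraries, and every other pair of groups overlapped. Of the 68 genes, 25 (36.8%) had their lowest value in Sanfen longissimus replicate 2, where 11.4% of all kept loci had theirs. Another count gave 21 genes (30.9%) with their highest value in Sanfen gluteal replicate 1, against 17.8% of all kept loci.

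Sanfen longissimus replicate 2 was also the lowest for 76 nuclear genes of oxidative phosphorylation, at -0.64, and for 79 cytosolic ribosomal protein genes, at -0.75. The mean over all kept loci was 0.04 there, so the low level was not general. In Sanfen gluteal replicate 1 these lists stood at 0.39 and 0.24, and all kept loci at 0.14. In Sanfen gluteal replicate 1 the marker lists stood at 0.36 for skeletal muscle, 0.50 for adipocytes, 0.14 for endothelium, 0.35 for fibroblasts and tendon, -0.10 for satellite cells, 0.38 for macrophages and 0.76 for Schwann cells. In Sanfen longissimus replicate 2 they stood at 0.08, 0.53, 0.01, -0.05, 0.41, 0.00 and 0.29 in the same order. What these markers contribute to the levels of the mitochondrial ribosomal protein genes was not tested.

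**Figure D2:**
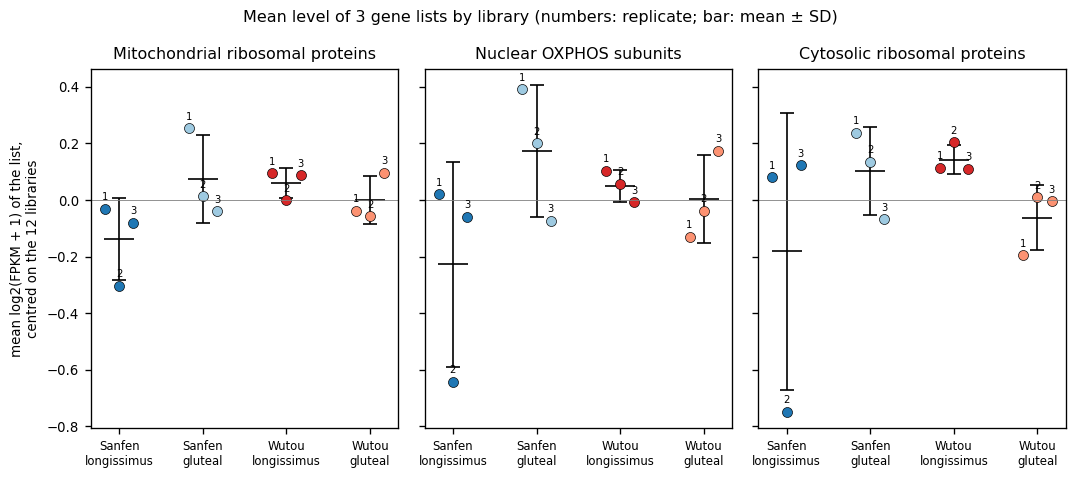
Mean centred log2(FPKM + 1) of the 68 mitochondrial ribosomal protein genes, 76 nuclear oxidative phosphorylation genes and 79 cytosolic ribosomal protein genes; points are libraries numbered by replicate, bars are the group mean and SD (n = 3). Sanfen longissimus replicate 2 is the lowest point in each panel, at -0.30, -0.64 and -0.75.

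Between the muscles of the Sanfen strain, no mitochondrial ribosomal protein gene passed the test (limma on log2(FPKM + 1), Benjamini-Hochberg adjusted over 12408 loci, threshold 0.05), in a comparison where 3 loci, 0.0242%, passed. At an unadjusted p under 0.05 there were 3 members, MRPL34, MRPS25 and MRPL3, all higher in gluteal muscle, where 3.57% of all loci reached that level. By sign, 56 of 68 members had a higher fitted level in gluteal than in longissimus muscle, with a median log2 difference of 0.20, while 67.6% of all loci were higher, with a median of 0.08. The large subunit counted 39 of 46 and the small subunit 16 of 21. In 6 members the libraries of the 2 muscles did not overlap, each higher in gluteal muscle (MRPS25, MRPL3, MRPL4, MRPL1, MRPL33 and MRPL45), against 7.54% of all loci in either direction.

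Without Sanfen longissimus replicate 2 the count was 49 of 68 (median 0.11, all loci 0.11), and without Sanfen gluteal replicate 1 it was 52 of 68 (median 0.09, all loci 0.06). Without both it was 34 of 68, with a median of 0.01 against 0.07 over all loci. These were the lowest and the highest library for these same genes and were chosen after seeing the data, so leaving out both lowers the count by construction. Rescaling by median-of-ratios gave 46 of 68 members higher in gluteal muscle, beside 51.3% of all loci, whose median was 0.01.

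MRPL34 is a small protein of the large subunit with a bacterial counterpart. Sanfen longissimus libraries read 0.235, 0.624 and 6.06 FPKM and Sanfen gluteal libraries 16.6, 7.62 and 2.95 FPKM. The Wutou libraries read 10.1, 15.7 and 15.2 FPKM in longissimus and 10.9, 12.1 and 14.9 FPKM in gluteal muscle. All 6 Wutou libraries lay above every Sanfen library except gluteal replicate 1, and the 2 Sanfen muscles overlapped. The fitted log2 difference between the Sanfen muscles was 1.80 ± 0.62 (SE, unadjusted p = 0.0131, adjusted p = 1). Between strains in longissimus muscle it was 2.58 ± 0.62 (unadjusted p = 0.00137, adjusted p = 0.757), with no overlap, the smallest p of any member in the 7 comparisons. At the second MRPL34 locus the longissimus groups overlapped, at 1.48, 0.517 and 1.23 FPKM in Sanfen longissimus and 1.51, 1.56 and 1.11 FPKM in Wutou longissimus muscle.

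MRPS25, a small-subunit protein found only in mitochondrial ribosomes, read 5.73, 3.43 and 6.96 FPKM in Sanfen longissimus and 12.7, 7.93 and 10.8 FPKM in Sanfen gluteal muscle. In the Wutou strain it read 9.18, 4.72 and 13.3 FPKM in longissimus and 4.24, 4.53 and 6.76 FPKM in gluteal muscle. The muscles separated in the Sanfen strain and overlapped in the Wutou strain, with the means in opposite order. The Sanfen muscle difference was 0.87 ± 0.33 on the log2 scale (unadjusted p = 0.0238), and the test of the difference between the strains' muscle differences gave -1.50 ± 0.47 (unadjusted p = 0.00832, adjusted p = 1). In gluteal muscle the Wutou minus Sanfen difference was -0.89 ± 0.33 (unadjusted p = 0.0206, adjusted p = 0.963).

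MRPL3, a large-subunit protein near the catalytic centre, varied little in Sanfen longissimus muscle, at 2.84, 2.99 and 2.79 FPKM. Sanfen gluteal libraries read 3.40, 5.24 and 3.96 FPKM, Wutou longissimus 5.44, 3.34 and 4.29 FPKM and Wutou gluteal 3.23, 4.44 and 4.47 FPKM. Sanfen longissimus was below every other library, and its difference from Sanfen gluteal muscle was 0.41 ± 0.19 (unadjusted p = 0.0499).

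Between the muscles of the Wutou strain no locus passed (0% of 12408, limma with adjustment), and so no member did. At an unadjusted p under 0.05 there were 8 members, 2 higher and 6 lower in gluteal muscle, against 5.68% of all loci. The signs were mixed, with 29 members higher and 39 lower in gluteal muscle and a median of -0.06, where 58.6% of all loci were higher, with a median of 0.05. The members' median turned positive without Wutou gluteal replicate 2, Wutou longissimus replicate 1 or Wutou longissimus replicate 3. With a filter at 5 FPKM, 10 of 37 members were higher in gluteal muscle (median -0.14), beside 45.5% of all loci (median -0.04). The libraries of the 2 muscles did not overlap in 14 members (20.6%), 5 higher and 9 lower in gluteal muscle, against 12.9% of all loci.

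MRPS11, a small-subunit protein whose bacterial counterpart lies on the platform of the small subunit, read 4.97, 9.22 and 7.94 FPKM in longissimus and 12.4, 14.8 and 15.6 FPKM in gluteal muscle of the Wutou strain. Sanfen longissimus libraries read 14.9, 9.46 and 13.2 FPKM and Sanfen gluteal libraries 12.9, 14.5 and 11.9 FPKM. The 3 Wutou longissimus libraries were the lowest of the 12. The Wutou muscle difference was 0.89 ± 0.23 on the log2 scale (unadjusted p = 0.00239, adjusted p = 0.870), and the strain difference in longissimus muscle was -0.71 ± 0.23 (unadjusted p = 0.0102). These comparisons share the Wutou longissimus libraries. Its neighbour MRPL46 read 4.43, 4.58 and 1.83 FPKM in the longissimus and 4.24, 4.19 and 5.17 FPKM in the gluteal libraries of that strain, which overlapped.

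MRPS21, a small-subunit protein with a bacterial counterpart, was highest in the same 3 libraries. Wutou longissimus read 11.6, 3.97 and 4.72 FPKM and Wutou gluteal 2.09, 1.89 and 2.64 FPKM, and the Sanfen libraries read 3.42, 1.84 and 2.66 FPKM in longissimus and 3.52, 2.63 and 3.03 FPKM in gluteal muscle. No other library reached the lowest Wutou longissimus value. The log2 difference between the Wutou muscles was -1.15 ± 0.30 (unadjusted p = 0.00252, adjusted p = 0.870) and -0.74 without Wutou longissimus replicate 1. The difference between the strains' muscle differences was -1.33 ± 0.42 (unadjusted p = 0.00913, adjusted p = 1).

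MRPS2, a small-subunit protein with a bacterial counterpart, read 2.85, 4.12 and 14.1 FPKM in Wutou longissimus muscle and between 12.4 and 20.5 FPKM in the 9 other libraries. Replicates 1 and 2 stood far below, and replicate 3 lay within the range of the rest. The Wutou muscle difference was 1.29 ± 0.40 (unadjusted p = 0.00737, adjusted p = 0.870), and the strain difference in longissimus muscle was -1.34 ± 0.40 (unadjusted p = 0.00581, adjusted p = 0.854).

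MRPL57, a large-subunit protein found only in mitochondrial ribosomes, had libraries at a low and at a high level. Wutou longissimus read 12.1, 23.6 and 18.5 FPKM and Wutou gluteal 1.58, 1.33 and 11.0 FPKM. Sanfen longissimus read 1.01, 6.60 and 0.685 FPKM and Sanfen gluteal 13.0, 1.06 and 1.15 FPKM. In all, 6 libraries lay at 1.58 FPKM or less, and the 3 Wutou longissimus libraries were all high. The strain difference in longissimus muscle was 2.64 ± 0.83 (unadjusted p = 0.00822, adjusted p = 0.854), the Wutou muscle difference was -2.15 ± 0.83 (unadjusted p = 0.0243).

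MRPL49, a large-subunit protein found only in mitochondrial ribosomes, also stood at distinct levels. Wutou longissimus read 4.75, 4.77 and 5.0 FPKM and Wutou gluteal 1.58, 1.40 and 1.69 FPKM, a clear separation with little spread. The Sanfen libraries read 4.51, 7.28 and 1.49 FPKM in longissimus and 5.94, 7.40 and 1.49 FPKM in gluteal muscle, so replicate 3 was low in both muscles. The Wutou muscle difference was -1.19 ± 0.45 (unadjusted p = 0.0226, adjusted p = 0.870), the SE being shared with the more variable Sanfen groups.

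MRPL14, a large-subunit protein at the face that meets the small subunit, read 15.7, 12.9 and 9.36 FPKM in longissimus and 5.0, 2.17 and 7.99 FPKM in gluteal muscle of the Wutou strain, without overlap. Sanfen longissimus read 4.78, 3.86 and 12.9 FPKM and Sanfen gluteal 7.02, 4.55 and 3.70 FPKM. The Wutou muscle difference was -1.27 ± 0.44 (unadjusted p = 0.0135). Averaged over strains the muscle difference was -0.79 ± 0.31 (unadjusted p = 0.0262, adjusted p = 0.745).

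**Figure D3:**
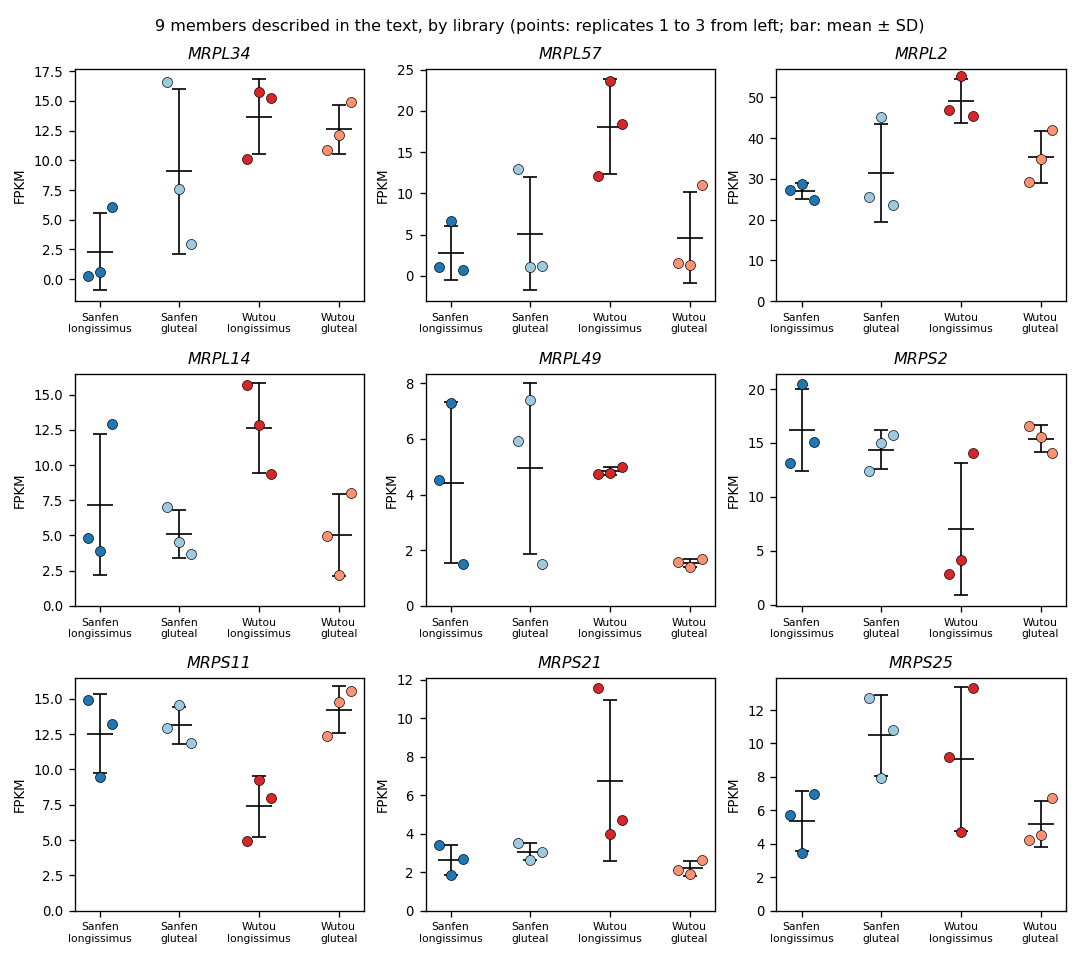
FPKM of 9 genes by group, 1 panel per gene with its own axis; points are replicates 1 to 3 from left to right and bars are the mean and SD (n = 3). In Wutou longissimus muscle MRPS11 is low at 4.97 to 9.22 FPKM and MRPL57 is high at 12.1 to 23.6 FPKM, and MRPL34 is under 1 FPKM in 2 Sanfen longissimus libraries.

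Averaged over the strains, no locus (0%) passed between the muscles by limma, and 6 members had an unadjusted p under 0.05, 4 higher and 2 lower in gluteal muscle, against 6.56% of all loci. The 3 smallest p-values belonged to MRPS11 (log2 difference 0.49 ± 0.16, unadjusted p = 0.0121), MRPL4 (0.34 ± 0.12, unadjusted p = 0.0168) and MRPL14. Higher in gluteal muscle were 47 of 68 members (69.1%, median 0.10), near the 65.9% of all loci (median 0.07). After median-of-ratios rescaling it was 36 of 68 members and 50.1% of all loci.

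Between the strains in longissimus muscle, 2 of 12408 loci (0.0161%) passed and neither was a member. Yet 13 of 68 members (19.1%) had an unadjusted p under 0.05 by limma, 10 higher and 3 lower in the Wutou strain, while 5.52% of all loci did. The libraries of the strains did not overlap in 13 members (19.1%), 9 higher and 4 lower in the Wutou strain, against 11.8% of all loci. By sign 46 of 68 members were higher in the Wutou strain, with a median of 0.09, where 40.7% of all loci were higher, with a median of -0.06. Of the oxidative phosphorylation genes 66 of 76 were also higher (median 0.29), and of the cytosolic ribosomal protein genes 74 of 79 (median 0.31). Mitochondrial translation factors counted 3 of 12 higher (median -0.12). With a filter at 5 FPKM, 28 of 37 members were higher (median 0.15), beside 52.1% of all loci (median 0.02). Genes with a bacterial counterpart counted 28 of 39 higher (median 0.19) and mitochondria-only genes 17 of 28 (median 0.05). Without Sanfen longissimus replicate 2, the library with the lowest member mean, 37 of 68 members and 45.2% of all loci were higher, the members' median was 0.07, and 12 had an unadjusted p under 0.05.

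MRPL2 was among the 13. Sanfen longissimus read 27.2, 28.8 and 24.9 FPKM and Wutou longissimus 46.8, 55.2 and 45.3 FPKM, while the gluteal libraries read 25.4, 45.2 and 23.6 FPKM in the Sanfen and 29.1, 34.8 and 42.0 FPKM in the Wutou strain. The longissimus groups separated by a wide gap, and the gluteal groups overlapped. The difference in longissimus muscle was 0.84 ± 0.25 (unadjusted p = 0.00616, adjusted p = 0.854). MRPL55 read 7.13, 6.25 and 7.22 FPKM in Sanfen longissimus and 8.83, 11.5 and 13.0 FPKM in Wutou longissimus muscle, a difference of 0.61 ± 0.20 (unadjusted p = 0.0107), again without overlap.

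In gluteal muscle 1 of 12408 loci (0.00806%) passed between the strains and it was no member. The 4 members with an unadjusted p under 0.05 by limma (MRPS25, MRPL4, MRPL18 and MRPL49) were all lower in the Wutou strain, and 4.86% of all loci reached that level. The strains did not overlap in 7 members, 2 higher and 5 lower in the Wutou strain, against 10.9% of all loci. By sign 24 members were higher and 44 lower in the Wutou strain, with a median of -0.06 beside -0.09 over all loci. Of all loci 34.2% were higher, beside 35.3% of the members. After median-of-ratios rescaling 36 of 68 members and 48.9% of all loci were higher, and after quantile normalization 37 of 68 and 50.7%, so the members stayed near all loci under each scaling. Without Sanfen gluteal replicate 1, 33 of 68 members and 40.8% of all loci were higher.

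MRPL4, a large-subunit protein with a bacterial counterpart, read 4.04, 3.52 and 3.88 FPKM in Sanfen gluteal and 1.75, 3.12 and 2.73 FPKM in Wutou gluteal muscle. In longissimus it read 2.99, 2.96 and 2.31 FPKM in the Sanfen and 1.48, 1.66 and 2.26 FPKM in the Wutou strain. The strains separated in both muscles, with the Wutou libraries lower. The difference was -0.46 ± 0.17 in gluteal muscle (unadjusted p = 0.0214), -0.43 ± 0.17 in longissimus muscle (unadjusted p = 0.0313) and -0.45 ± 0.13 averaged over the muscles (unadjusted p = 0.00606, adjusted p = 0.793). MRPL18, a large-subunit protein whose bacterial counterpart binds 5S ribosomal RNA, read 6.32, 5.94 and 6.25 FPKM in Wutou gluteal and 8.90, 7.35 and 10.1 FPKM in Sanfen gluteal muscle, a difference of -0.44 ± 0.18 (unadjusted p = 0.0330).

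Averaged over the muscles, no locus (0%) passed between the strains by limma. The 5 members with an unadjusted p under 0.05 were MRPL4, MRPL34, MRPL55, MRPL2 and MRPS12, 4 of them higher in the Wutou strain, against 5.97% of all loci. MRPL34 differed by 1.63 ± 0.52 (unadjusted p = 0.00879) and MRPL55 by 0.46 ± 0.15 (unadjusted p = 0.0107). By sign 38 of 68 members (55.9%) were higher in the Wutou strain, with a median of 0.03, beside 35.3% of all loci, whose median was -0.07. After median-of-ratios rescaling it was 46 of 68 members and 49.8% of all loci. Without rescaling, 49 of 76 oxidative phosphorylation genes, 60 of 79 cytosolic ribosomal protein genes and 3 of 12 mitochondrial translation factors were higher in the Wutou strain.

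The test of whether the muscle difference itself differed between strains passed in 1 locus (0.00806%), which was no member. By limma 5 members had an unadjusted p under 0.05 (MRPS25, MRPS21, MRPS2, MRPS11 and MRPL57), against 2.6% of all loci. MRPS2 gave 1.44 ± 0.56 (unadjusted p = 0.0260). In 47 of 68 members the gluteal minus longissimus difference was lower in the Wutou than in the Sanfen strain, with a median of -0.26 and -0.03 over all loci. It was higher in 21 members (30.9%), beside 45.4% of all loci. In 69 of 76 oxidative phosphorylation genes (median -0.41) and 76 of 79 cytosolic ribosomal protein genes (median -0.51) it was also lower. Of 12 mitochondrial translation factors 5 were lower (median 0.07). With a filter at 5 FPKM the members' median was -0.30 and that of all loci -0.13. Without Sanfen gluteal replicate 1 the members' median was -0.13, and without that library and Sanfen longissimus replicate 2 it was -0.12.

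**Figure D4:**
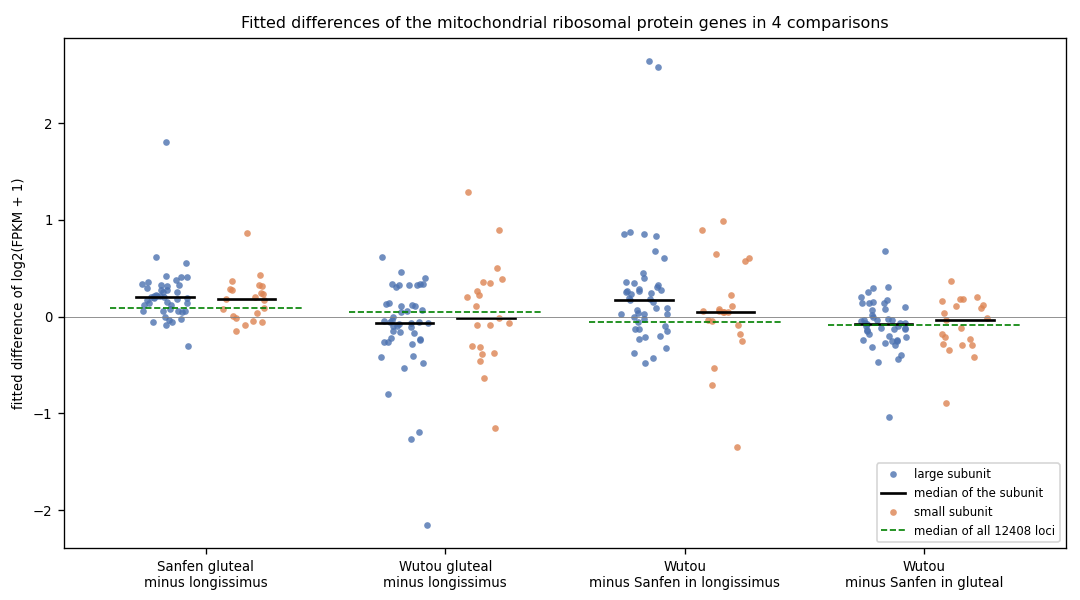
Fitted difference of log2(FPKM + 1) for 67 genes of the 2 subunits in 4 comparisons; points are genes, black bars the subunit medians and the dashed line the median of all 12408 loci. Members centre at 0.20 between the Sanfen muscles, -0.06 between the Wutou muscles, 0.09 between strains in longissimus and -0.06 between strains in gluteal muscle, and the points farthest from 0 are MRPL57 and MRPL34.

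Across the 12 libraries the members moved together only in part. The Pearson correlation of a member with the mean of the other members had a median of 0.35 and was positive in 54 of 68, where the other kept loci had a median of 0.04 with the members' mean. These points share 4 groups and the same FPKM scaling, so the values are descriptions. MRPL21 (0.82) and MRPL33 (0.81) of the large subunit had the highest values. MRPL21, for example, read 15.9 FPKM in Sanfen longissimus replicate 2 and 28.8 FPKM in Sanfen gluteal replicate 1, its lowest and highest library. At the other end were MRPS27 (-0.52), MRPL54 (-0.47) and MRPS2 (-0.44). MRPL54 read 26.1 FPKM in Sanfen longissimus replicate 2, its highest library. MRPS36 had a value of 0.69, and its 1.40 FPKM in Sanfen longissimus replicate 2 was its lowest.

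Nuclear oxidative phosphorylation genes had a median correlation of 0.69 with the members' mean and cytosolic ribosomal protein genes one of 0.67. Sanfen longissimus replicate 2 was the lowest library for the members and for both lists, and no correlation was computed without it. Other lists of the mitochondrial translation system were looser, with 0.44 for 6 further ribosome proteins, 0.26 for 12 translation factors, 0.19 for 16 ribosome assembly factors and 0.01 for 13 aminoacyl-tRNA synthetases. For 8 genes of mitochondrial DNA transcription and replication it was 0.39, and for 8 regulators of mitochondrial biogenesis -0.30. Summed levels lay between 3766 and 6920 FPKM for oxidative phosphorylation and between 45.0 and 63.6 FPKM for translation factors. What these levels contribute to the correlations was not tested. The 10 named loci with the highest correlation were PSMA1 (0.92), a proteasome subunit, ATP5J (0.90) of ATP synthase, the complex I genes NDUFB8, NDUFC1, NDUFC2, NDUFB3 and NDUFA10, and MIEN1, ADH5 and SMIM11A. PSMA1 read 7.80 FPKM in Sanfen longissimus replicate 2 and 13.3 FPKM in Sanfen gluteal replicate 1, its lowest and highest libraries.

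Another 6 mitochondrial ribosome proteins carry names outside the rule. GADD45GIP1, a large-subunit protein, averaged 31.1 FPKM, CHCHD1 9.97 FPKM, PTCD3 4.63 FPKM and DAP3, a small-subunit GTPase, 2.65 FPKM. AURKAIP1 lies in a locus merged with MXRA8, which averaged 5.13 FPKM. ICT1, now named MRPL58, a peptidyl-tRNA hydrolase built into the large subunit, averaged 1.04 FPKM. GADD45GIP1 read 37.1, 11.6 and 23.2 FPKM in Sanfen longissimus and 39.8, 48.4 and 45.4 FPKM in Wutou longissimus muscle, without overlap, a log2 difference of 1.01 ± 0.36 (unadjusted p = 0.0163, adjusted p = 0.854).

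None of the other fixed lists held a gene that passed the test in any of the 7 comparisons. Between the Sanfen muscles 74 of 76 oxidative phosphorylation genes and 76 of 79 cytosolic ribosomal protein genes were higher in gluteal muscle, with medians of 0.35 and 0.27, beside 67.6% of all loci. For translation factors the count was 9 of 12 and for assembly factors 10 of 16 (62.5%), below the share of all loci. Between the Wutou muscles 31 of 76 oxidative phosphorylation genes and 11 of 79 cytosolic ribosomal protein genes were higher in gluteal muscle, with medians of -0.05 and -0.23, beside 58.6% of all loci. Here 10 of 12 translation factors and 5 of 16 assembly factors were higher. The members' medians stood at 0.20 and -0.06 in these comparisons.

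Among the lists of mitochondrial and ribosomal genes, COX7C, a subunit of cytochrome c oxidase, had the smallest p. It read 83.5, 52.1 and 78.0 FPKM in Sanfen longissimus and 198, 207 and 158 FPKM in Sanfen gluteal muscle, a log2 difference of 1.40 ± 0.23 (limma, adjusted p = 0.165). WARS2, the mitochondrial tryptophanyl-tRNA synthetase, read between 1.36 and 1.81 FPKM in the 6 Sanfen libraries and between 0.659 and 1.29 FPKM in the 6 Wutou libraries, so the strains did not overlap, and the averaged difference was -0.44 ± 0.11 (adjusted p = 0.783). TFAM, which packages mitochondrial DNA, differed by 0.56 ± 0.23 between the muscles averaged over strains (adjusted p = 0.745), and MTIF3, an initiation factor, by 0.58 ± 0.21 between the Wutou muscles (adjusted p = 0.870). NSUN4, a ribosome assembly factor, differed by -0.43 ± 0.17 between the strains averaged over muscles (adjusted p = 0.793).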

How the data were processed

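RNA from 12 muscle samples was sequenced, and the deposited table gives FPKM per locus, a unit made by the authors. The submitters' processing notes name cutadapt, Bowtie2 and TopHat2. The genome build, the counter and the way values of several transcripts were combined are not given in the sources used here. Read counts were not analysed here, so the depth behind a value is unknown and the precision rests on the 3 libraries per group.

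Members were all loci named MRPL or MRPS plus a number, 1 per name. The members, the lists and the tests were chosen with earlier results of these data known. Values were taken as log2(FPKM + 1) (pseudocount 1), loci at 1 FPKM or more in at least 3 libraries were kept, and limma 3.58.1 in R 4.3.3 was fitted to all 12 libraries and 4 groups with Benjamini-Hochberg adjustment over 12408 loci. The scale understates fold changes of low genes. Fits were tested on simulated data with planted differences larger than the members' medians. The power to find differences of the members' size was not tested. The strain comparison averaged over muscles used a random replicate block (statmod 1.5.0, consensus correlation 0.188).

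For the other gene lists only, 3141 of 5962 LOC identifiers were matched to RefSeq (EquAss-T2T_v2), which gave 981 a symbol. Lists written from textbook knowledge covered further mitochondrial ribosome proteins, translation factors, aminoacyl-tRNA synthetases, ribosome assembly, mitochondrial DNA transcription and replication, biogenesis regulators, oxidative phosphorylation, mitochondrially encoded proteins (0 in the table by name), cytosolic ribosomal proteins and cell type markers.

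Genes were named by rule: any member past the threshold, the 3 smallest p-values per comparison, the 5 highest members of each subunit and the 3 lowest, members that failed the filter, members with several loci, extremes of the coefficient of variation, genes of unusual place, up to 3 genes per list and the 10 loci most like the members. MRPL46, MRPL49, MRPS27 and MRPL33 were named after their values were seen, as were the correlations of MRPL54 and MRPL21. Further members were named for a neighbour or overlap in the assembly, a merged locus, an unadjusted p under 0.05 or groups without overlap.

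Replicate numbers in the titles may pair the muscles. Same-numbered deviations from the group means correlated at 0.25, 0.11 and 0.16 over all kept loci in the Sanfen strain and at 0.18, 0.16 and 0.07 in the Wutou strain. Every Sanfen pair was over 0.1, and the third Wutou pair was not. Differently numbered pairs of the same strain ran from -0.17 to 0.01, below every same-numbered pair. Deviations cancel within a group, which by itself lowers the other pairs where same-numbered ones are positive. Over the members alone the same-numbered pairs gave -0.21, 0.04 and -0.20 in the Sanfen and 0.38, 0.03 and -0.21 in the Wutou strain. Differently numbered pairs ran from -0.41 to 0.35 over the members. No label shows that same-numbered libraries share a donkey, so the pairing remains uncertain in both strains.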

Additional observations from a re-analysis of the deposited data

How the results depend on the processing

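No member passed the adjusted threshold in any of the 7 comparisons under the main settings or any alternative (0 members in each), which were another pseudocount, 2 other filters, 2 other scalings, array weights, only the 6 libraries compared, summed loci of one name, each library left out and, for the muscle and averaged comparisons and the interaction, the replicate block. The lowest adjusted p of a member under any alternative was 0.076, between strains in longissimus muscle. With the replicate block 0 members passed. At an unadjusted p under 0.05 it gave 15 members against 8 between the Wutou muscles and 14 against 6 between the muscles averaged over strains. Between the Sanfen muscles it gave 3 as before. The block rests on replicate numbers, which no label ties to an animal. No replicate block gave 8 against 5 for the averaged strain comparison, and no block applies within 1 muscle. Leaving out 1 library at a time, the median member difference ranged from 0.09 to 0.29 between the Sanfen muscles, from -0.10 to 0.02 between the Wutou muscles, from 0.04 to 0.15 averaged over strains, from 0.07 to 0.19 between strains in longissimus, from -0.16 to -0.01 between strains in gluteal, from -0.02 to 0.05 averaged over muscles and from -0.33 to -0.13 for the interaction. Without both Sanfen longissimus replicate 2 and Sanfen gluteal replicate 1, chosen after seeing the data, the median was 0.0052 between the Sanfen muscles and -0.12 for the interaction. Using only members in loci of 1 gene with a reference transcript, also chosen after seeing the data, moved no median by more than the SD between libraries of 1 group, 0.12. The unknown depth limits the statements on genes near 1 FPKM.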
